A study of Homo sapiens with 60 samples.

Results

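The 27 genes described here encode enzymes of cholesterol synthesis, the proteins that sense sterol and switch that synthesis on or off, and 1 sterol carrier. They were chosen by name: HMGCS1 and ACAT2 at the start of the pathway, MVK, PMVK, MVD, IDI1, FDPS and GGPS1 in its isoprenoid steps, FDFT1, SQLE and LSS between farnesyl diphosphate and lanosterol, CYP51A1, TM7SF2, LBR, MSMO1, NSDHL, HSD17B7, EBP, SC5D and DHCR7 in the sterol steps, INSIG1, INSIG2, SREBF2, SCAP, MBTPS1 and MBTPS2 in its control, and STARD4 in transport. All 27 were found among the 60675 genes of the deposited table, and all 27 passed the filter on low counts that left 17368 genes for testing. The lowest count of any of them in any library was 92. Other genes of sterol uptake and synthesis are not analysed here.

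The cells were A549, an epithelial line from a human lung carcinoma, and their RNA was sequenced 24 h into treatment, in 60 libraries of 20 groups with 3 libraries each. The treated groups were wortmannin at 10 µM, an inhibitor of phosphoinositide 3-kinases that served as the positive control, and water extracts of 6 herbal drugs. Each extract had labelled doses of 20, 100 and 500 µg/mL. The drugs were Polygalae Radix, Aucklandiae Radix, Zizyphi Semen, Longan Arillus, Schisandrae Fructus and Liriopis seu Ophiopogonis Tuber, named below by the opening word. The reference for all was Vehicle, labelled 0.1% DMSO, whereas the design text gives 2%; the solvent of the treated cells is not given in the sources used here. The design text also states that toxic extracts were given at lower doses than planned, while the labels give the same 3 doses for every extract, so doses are quoted as labelled. Whether the 3 libraries of a group stem from separate cultures is not stated, and the spread behind each p-value may therefore be technical.

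Cholesterol is built from acetyl-CoA by way of mevalonate, isoprenoid diphosphates, squalene and lanosterol. When membranes of the endoplasmic reticulum are rich in sterol, the INSIG proteins hold SCAP and its cargo, the transcription factor precursor encoded by SREBF2, in place. When sterol is low, SCAP carries the precursor to the Golgi, the proteases encoded by MBTPS1 and MBTPS2 cut it, and the released factor raises transcription of most enzymes of the pathway and of INSIG1 itself.

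Library totals ran between 17.7 and 30.6 M counts (M, mega), with a median of 24.6 M. The libraries of Polygalae 20 correlated with their group mates at 0.985 to 0.987 and those of Liriopis 20 at 0.989 to 0.991, against 0.990 to 0.993 in the other groups. The first part of the library name is here called the set. It was A1 in Vehicle, 1 in wortmannin, 2 in Liriopis and Schisandrae, 3 in Longan and Zizyphi and 4 in both Polygalae and Aucklandiae. The labels do not say what this part stands for, nor whether A1 and 1 are the same set. A difference from Vehicle therefore cannot be told apart from a difference between sets. Differences between Polygalae and Aucklandiae, and between Polygalae doses, lay within a single set. The summed level of 10 epithelial markers of A549 cells was 8039 to 8368 CPM (counts scaled to the library total) in Polygalae 500. It was 8598 to 8830 CPM in wortmannin and 9313 to 9622 CPM in Vehicle. KRT8, KRT18 and AKR1B10 made up most of this sum. Of the 8 markers tested over Vehicle, edgeR called 1 higher and 3 lower in Polygalae 500 (10.4% and 9.48% of all genes). In wortmannin it called 2 higher and 2 lower (18% and 19.4% of all genes). The summed level of 9 markers of fibroblasts, endothelium and blood was 22.2 to 29.1 CPM in Polygalae 500, against 33.3 to 34.1 CPM in Vehicle, and 7 of these 9 were too low to test. The collagen gene COL1A1 made up most of this sum. The 2 tested, COL1A1 and COL3A1, were both called lower in Polygalae 500 (9.48% of all genes). The lung lineage factor NKX2-1 was at 0 in 48 of 60 libraries. Depth was 18.7 to 24.4 M in Polygalae 500, against 24.9 to 28.4 M in Vehicle. The part of these differences in the results below was not tested. In bulk RNA, fewer cells of a kind and less RNA per cell cannot be told apart.

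Within Vehicle, levels per kilobase of exon spanned a wide range across the pathway. HMGCS1, the cytosolic HMG-CoA synthase, was highest at 38.7 ± 0.034 CPM per kilobase (SD, n = 3), followed by the lanosterol demethylase CYP51A1 at 28.9 ± 0.0778 and the squalene epoxidase SQLE at 28.6 ± 0.58, which did not differ beyond their spread. At the other end stood HSD17B7 at 2.18 ± 0.168, INSIG2 at 2.14 ± 0.115 and TM7SF2 at 1.60 ± 0.208 CPM per kilobase; HSD17B7 and INSIG2 lay within their spread. The reductases TM7SF2 and LBR, which catalyse the same sterol step, therefore differed widely, with LBR at 21.7 ± 0.136 CPM per kilobase.

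In Polygalae at 500 µg/mL, 24 of the 27 genes rose over Vehicle and none fell, with a median log2 fold change of 0.79 against 0.00072 over all genes tested. Of all 17368 genes, 10.4% were called higher and 9.48% lower in this comparison. Calls are by edgeR's quasi-likelihood test at a Benjamini-Hochberg adjusted p under 0.05. In 17 genes the rise was at least 1.5-fold, and in 6 it was at least 2-fold: MVD, MSMO1, ACAT2, FDPS, LSS and INSIG1. These cover every stretch of the synthesis, from the starting thiolase to the sterol steps and the feedback gene. The 3 genes that did not pass the test were GGPS1, SCAP and MBTPS1. Shares of all genes past 1.5-fold or 2-fold were not computed.

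**Figure D1:**
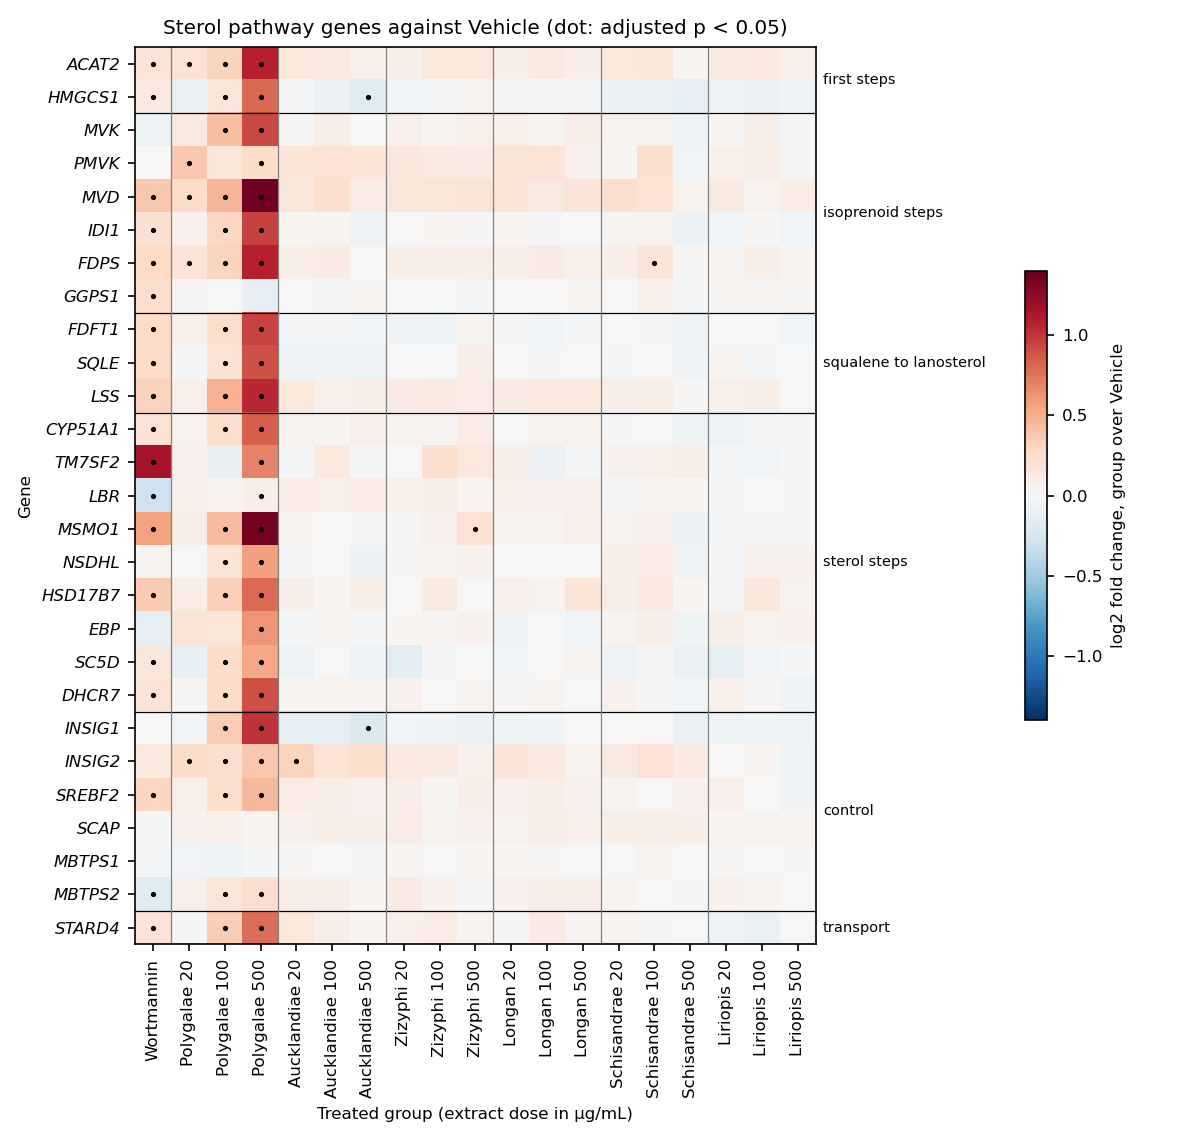
Log2 fold change of the 27 sterol pathway genes (rows, by role) in each of the 19 treated groups against Vehicle (columns; extract doses in µg/mL), with a dot where the adjusted p was under 0.05. The Polygalae 500 column carries 24 dots, all higher, and the columns of Aucklandiae, Zizyphi, Longan, Schisandrae and Liriopis carry few.

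At the start of the pathway, ACAT2, the thiolase that joins acetyl-CoA units, and HMGCS1 both rose. HMGCS1 (ENSG00000112972, chromosome 5, 43289395 to 43313512, minus strand, GRCh38) measured 317, 324 and 313 CPM in Polygalae 500, against 182, 182 and 182 CPM in Vehicle. The groups lay far apart and each was tight, and the log2 fold change was 0.80 ± 0.0372 (SE), with an adjusted p of 5.9e-26. ACAT2 rose by a log2 fold change of 1.09 ± 0.0602. It overlaps SOD2 and TCP1 on the opposite strand, and since the strand setting of the count is not given in the sources used here, its reads may include theirs.

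In the isoprenoid steps, 5 of 6 genes rose. The kinase MVK rose by a log2 fold change of 0.92 ± 0.0544, the kinase PMVK by 0.26 ± 0.0887, and the decarboxylase MVD by 1.36 ± 0.063, the largest change among the 27. IDI1, which isomerises isopentenyl diphosphate, measured 120, 120 and 114 CPM in Polygalae 500, against 62.1, 58.1 and 61.4 CPM in Vehicle. FDPS, the farnesyl diphosphate synthase, measured 189, 193 and 187 CPM in Polygalae 500, against 86.3, 91.2 and 90.8 CPM in Vehicle. In both genes every treated library stood well above every Vehicle library. Their log2 fold changes were 0.96 ± 0.0459 for IDI1 and 1.09 ± 0.0417 for FDPS, with adjusted p-values of 2.5e-25 and 8.8e-30. GGPS1, which draws farnesyl diphosphate off toward protein prenylation, had a log2 fold change of -0.12 ± 0.0548 and did not pass (adjusted p = 0.121). MVK overlaps MMAB on the opposite strand, and GGPS1 overlaps ARID4B on the opposite strand and TBCE on its own, so reads may be shared.

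All 3 genes that lead to lanosterol rose. SQLE measured 223, 229 and 231 CPM in Polygalae 500, against 125, 120 and 124 CPM in Vehicle. LSS, the cyclase that closes the rings of lanosterol (chromosome 21, 46188141 to 46228824), measured 77.8, 78.3 and 82.7 CPM in Polygalae 500, against 36.3, 38.1 and 40.2 CPM in Vehicle. Neither gene's groups overlapped. The log2 fold changes were 0.89 ± 0.0332 for SQLE, 1.06 ± 0.0436 for LSS and 0.94 ± 0.0388 for the squalene synthase FDFT1.

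All 9 genes of the sterol steps were called higher, though over a wide span. MSMO1, the methylsterol monooxygenase (ENSG00000052802, chromosome 4, 165327623 to 165343160, plus strand), measured 83.4, 81.9 and 82.3 CPM in Polygalae 500, against 32.7, 32.9 and 32.4 CPM in Vehicle. CYP51A1 measured 182, 182 and 189 CPM in Polygalae 500, against 104, 104 and 103 CPM in Vehicle. DHCR7, whose reductase acts at the end of the pathway, measured 165, 176 and 170 CPM in Polygalae 500, against 90.5, 91.1 and 93.5 CPM in Vehicle. No treated library of these genes fell within the Vehicle range, and MSMO1 stood out with a 2.53-fold higher level. The log2 fold changes were 1.34 ± 0.0509 for MSMO1, 0.83 ± 0.0361 for CYP51A1 and 0.89 ± 0.0352 for DHCR7, with adjusted p-values of 6.1e-30, 2.1e-27 and 3.2e-29. HSD17B7 and NSDHL, which act with MSMO1 in removing methyl groups, rose by 0.79 ± 0.0753 and 0.58 ± 0.0403, the isomerase EBP by 0.62 ± 0.0667 and the desaturase SC5D by 0.55 ± 0.0606. CYP51A1 shares its strand with 2 overlapping annotated genes, AC000120.2 and AC000120.3, and reads may be divided among them.

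The reductase pair behaved unequally. TM7SF2 measured 8.86, 8.97 and 8.52 CPM in Polygalae 500, against 4.77, 6.18 and 5.35 CPM in Vehicle, a log2 fold change of 0.69 ± 0.111 (adjusted p = 2.0e-06). LBR measured 125, 121 and 118 CPM in Polygalae 500, against 113, 114 and 115 CPM in Vehicle. The LBR libraries did not overlap but lay close, and the log2 fold change was 0.09 ± 0.0333 (adjusted p = 0.0411). This call was lost, with an adjusted p above the threshold, without the filter on low counts and in 5 of the 6 fits that left out 1 library, the exception being the fit without Polygalae 500 replicate 3.

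Among the genes of control, INSIG1 rose most. INSIG1 (ENSG00000186480, chromosome 7, 155297776 to 155310235) measured 85.7, 80.4 and 79.9 CPM in Polygalae 500, against 39.3, 41.4 and 41.1 CPM in Vehicle, with a log2 fold change of 1.01 ± 0.043 (adjusted p = 9.0e-28). SREBF2 measured 148, 156 and 154 CPM in Polygalae 500, against 109, 115 and 111 CPM in Vehicle, a log2 fold change of 0.45 ± 0.0396 (adjusted p = 5.2e-14). Both genes were higher in every treated library than in any Vehicle library. INSIG2 rose by 0.38 ± 0.0833 and MBTPS2 by 0.25 ± 0.0380 on the log2 scale; MBTPS2 shares its strand with the overlapping gene YY2. SCAP measured 66.2, 73.0 and 69.5 CPM in Polygalae 500, against 66.1, 65.4 and 72.1 CPM in Vehicle, so the groups overlapped, and its log2 fold change was 0.04 ± 0.0395 (adjusted p = 0.588). MBTPS1 had a log2 fold change of -0.02 ± 0.0375 (adjusted p = 0.78). The sterol carrier STARD4 measured 39.7, 40.7 and 44.2 CPM in Polygalae 500, against 25.4, 23.7 and 23.5 CPM in Vehicle, and rose by 0.78 ± 0.0482 on the log2 scale (adjusted p = 3.2e-20).

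**Figure D2:**
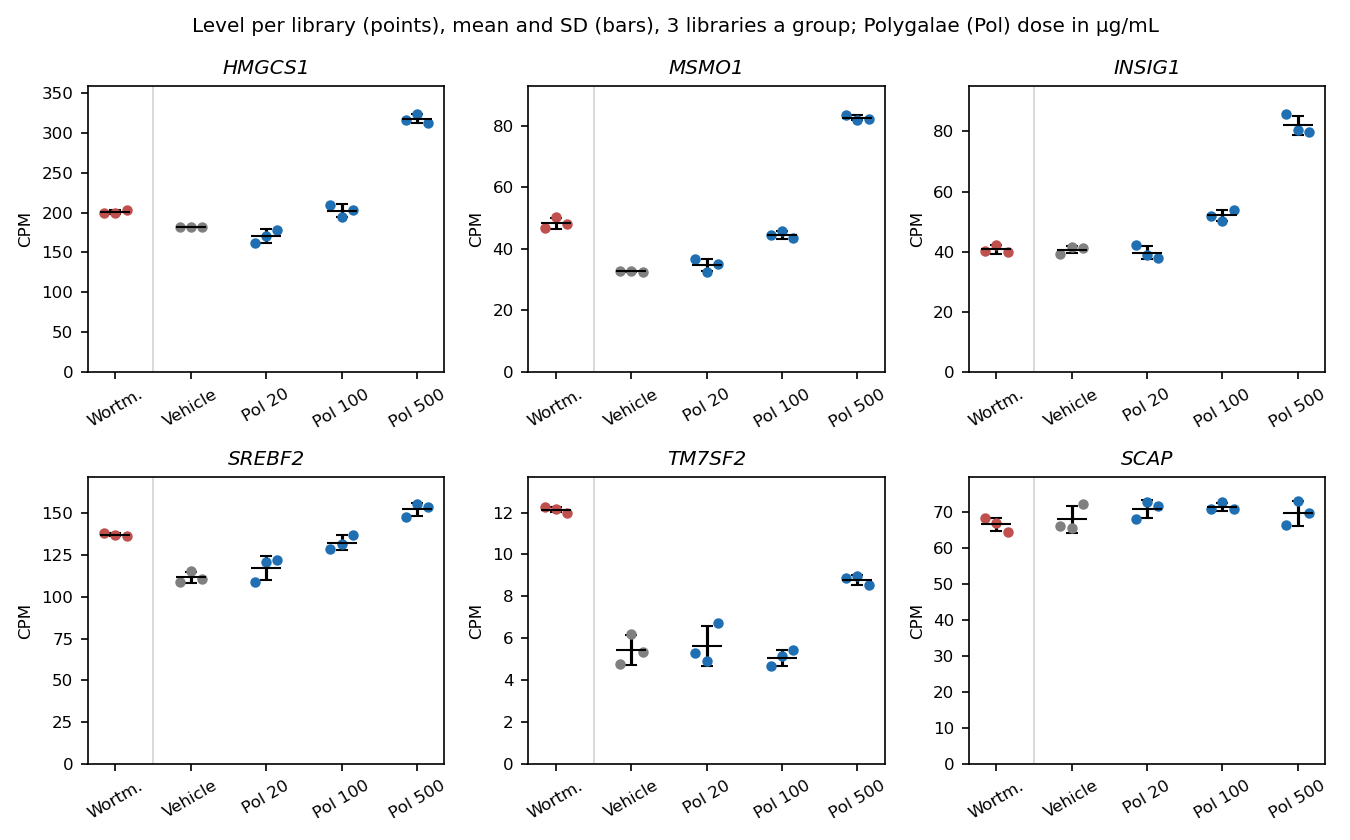
CPM of 6 genes in each library (points), with the mean and SD of the 3 libraries (bars), for wortmannin, Vehicle and Polygalae at 20, 100 and 500 µg/mL. HMGCS1, MSMO1 and INSIG1 stand highest in Polygalae 500, TM7SF2 stands highest in wortmannin at 12.0 to 12.3 CPM, and the SCAP groups overlap.

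Levels were graded by dose, with the larger step at the top of the range. Over Vehicle, 5 of the 27 genes rose in Polygalae 20 (6.59% of all genes were called higher and 5.53% lower), 20 rose in Polygalae 100 (7.51% higher and 5.27% lower) and 24 rose in Polygalae 500, and the medians of the log2 fold changes were 0.07, 0.25 and 0.79. None of the 27 fell at any of these doses. The 5 genes at the lowest dose were PMVK, MVD, ACAT2, FDPS and INSIG2, and PMVK had the largest log2 fold change there, 0.37 ± 0.087. That count was 0 without Polygalae 20 replicate 1 and 3 without Vehicle replicate 2; replicate 1 read 26.3 CPM for PMVK, against 20.4 and 19.4 CPM in the other libraries of the group. No gene reached 1.5-fold at 20 or 100 µg/mL. In 19 of the 27 genes the log2 fold change was ordered as the dose. The share of all genes in that order was not computed.

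Doses were then compared with each other, in contrasts that set no Vehicle level against them, although the fit of all 60 libraries behind them takes its spread from Vehicle too. Polygalae 500 exceeded Polygalae 100 in 20 of the 27 genes, with a median log2 difference of 0.50, and 0.795% of all genes were called higher in that contrast. These 20 genes made up 14.5% of the 138 genes called higher there and 74.1% of the 27. Polygalae 100 exceeded Polygalae 20 in 15 genes, with a median of 0.18 and 5.8% of all genes called higher; the count was 5 in a fit of only these 6 libraries. INSIG1 measured 42.1, 39.0 and 38.0 CPM at 20 µg/mL, 51.9, 50.4 and 53.9 CPM at 100 µg/mL and 85.7, 80.4 and 79.9 CPM at 500 µg/mL. MSMO1 measured 36.6, 32.6 and 35.2 CPM at 20 µg/mL, 44.4, 45.8 and 43.4 CPM at 100 µg/mL and 83.4, 81.9 and 82.3 CPM at 500 µg/mL. The 3 dose groups did not overlap in either gene. INSIG1 was higher by 0.39 ± 0.0451 in the step to 100 µg/mL and by 0.65 ± 0.0422 in the step to 500 µg/mL on the log2 scale. MSMO1 was higher by 0.89 ± 0.0496 in the step to 500 µg/mL, as was MVD with 0.89 ± 0.061.

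A slope per 5-fold dose step, fitted in the 9 Polygalae libraries alone, was positive in 19 genes at the threshold and negative in none, and 3.23% of the 15901 genes tested there had a positive call. The steepest was MSMO1 at 0.63 ± 0.0504 log2 units per step, followed by MVD at 0.56 ± 0.074, INSIG1 at 0.52 ± 0.0335 and LSS at 0.49 ± 0.0289. EBP, at 0.22 ± 0.0598 (adjusted p = 0.0604), and TM7SF2, at 0.33 ± 0.0941 (adjusted p = 0.0655), did not pass, nor did PMVK, at -0.06 ± 0.056. TM7SF2 measured 5.27, 4.91 and 6.71 CPM at 20 µg/mL and 4.65, 5.12 and 5.42 CPM at 100 µg/mL, both overlapping Vehicle, whereas the libraries at 500 µg/mL lay above it.

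Aucklandiae shared its library set with Polygalae, and the extracts were compared at equal labelled doses. Polygalae 500 exceeded Aucklandiae 500 in 21 of the 27 genes, with a median log2 difference of 0.75, and 8.2% of all genes were called higher. No gene was called lower in the fit of all libraries, but GGPS1 was in a fit of only the 6 libraries (log2 difference -0.14, adjusted p = 0.0452) and without the libraries of Polygalae 20 and Liriopis 20 (adjusted p = 0.0479). The 3 largest differences were in MSMO1 at 1.36 ± 0.0512, MVD at 1.26 ± 0.0627 and INSIG1 at 1.21 ± 0.0439 on the log2 scale. At 100 µg/mL, Polygalae exceeded Aucklandiae in 18 genes, with a median of 0.21 and 4.99% of all genes called higher. At 20 µg/mL edgeR called none of the 27 in either direction and DESeq2 called 1, while edgeR called 3.89% of all genes in either direction. Of the 27, 5 had an unadjusted p under 0.05, a count to which that share does not apply. The share of all genes at an unadjusted p was not computed.

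In Aucklandiae 500, edgeR called none of the 27 higher than in Vehicle and HMGCS1 and INSIG1 lower, and 2.24% of all genes were called higher and 2.69% lower. HMGCS1 measured 167, 155 and 160 CPM in Aucklandiae 500, against 182, 182 and 182 CPM in Vehicle. INSIG1 measured 35.6, 35.1 and 35.4 CPM in Aucklandiae 500, against 39.3, 41.4 and 41.1 CPM in Vehicle. Every Aucklandiae library lay below every Vehicle library in both genes. Other settings also called genes higher in Aucklandiae 500: LBR by DESeq2 (log2 fold change 0.10, adjusted p = 0.0402) and without the libraries of Polygalae 20 and Liriopis 20, and LBR and INSIG2 (0.25, adjusted p = 0.0383) in a fit of only the 6 libraries. HMGCS1 fell by 0.18 ± 0.0377 on the log2 scale (adjusted p = 0.00134) and INSIG1 fell by 0.20 ± 0.0459 (adjusted p = 0.00383). Across the 9 Aucklandiae libraries, HMGCS1 was the 1 gene of the 27 with a called slope, -0.08 ± 0.0164 log2 units per step (adjusted p = 0.0116; 0.835% of genes had a negative call), and this call was lost without Aucklandiae 500 replicate 2 or replicate 3. INSIG1 had a slope of -0.04 ± 0.0213 that did not pass. At 20 µg/mL, INSIG2 was higher than in Vehicle by 0.31 ± 0.0826 (adjusted p = 0.0249; 1.38% of genes were called higher). This call was lost in 4 of the 6 fits that left out 1 library: those without Aucklandiae 20 replicate 1 or 2 or Vehicle replicate 2 or 3, with an adjusted p for INSIG2 of up to 0.165. At 100 µg/mL edgeR called none of the 27, and 2.04% of all genes were called in either direction. Of the 27, 10 had an unadjusted p under 0.05, a count to which that share does not apply. Here too the share of all genes at an unadjusted p was not computed.

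**Figure D3:**
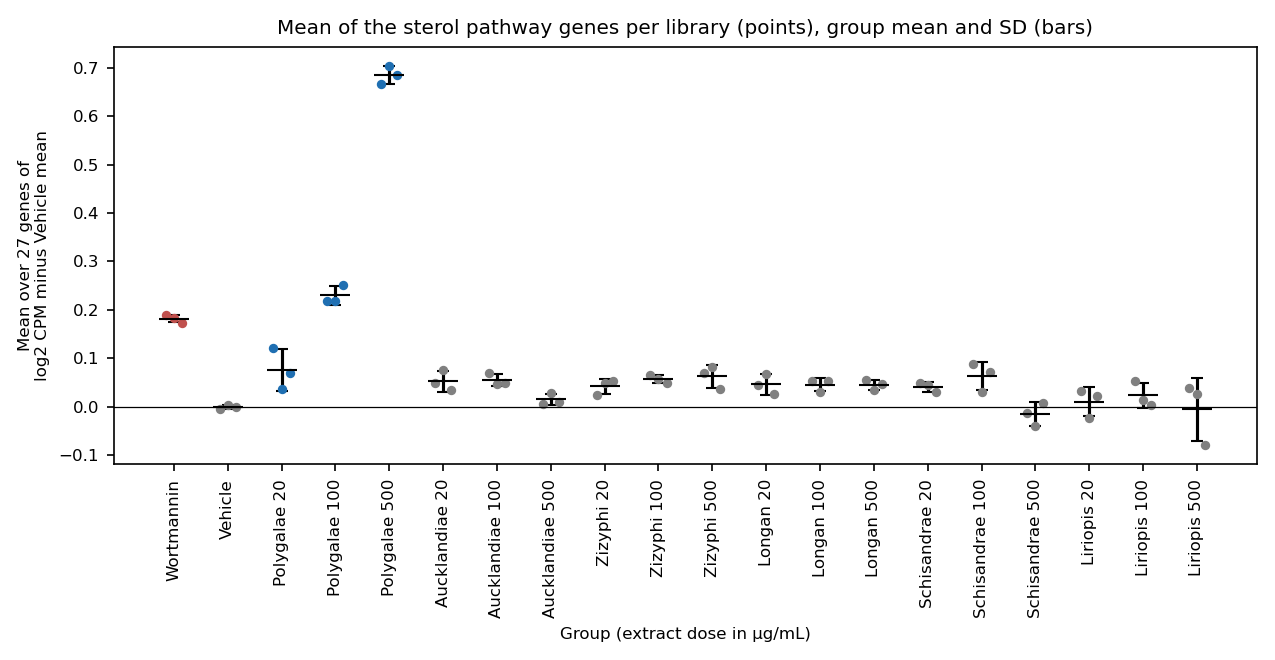
Mean over the 27 genes of log2 CPM minus the Vehicle mean, for each of the 60 libraries (points), with the mean and SD of each group of 3 (bars). Polygalae 500 lies at 0.684 ± 0.0191, Polygalae 100 at 0.230 ± 0.0194 and wortmannin at 0.182 ± 0.00792, and the group means of all extracts other than Polygalae lie between -0.0146 and 0.0636.

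In wortmannin the called genes of the pathway were mostly higher. Over Vehicle, 17 of the 27 genes were called higher and 2 lower, LBR and MBTPS2, with a median log2 fold change of 0.19. Wortmannin changed many genes, and 18% of all genes were called higher and 19.4% lower. The 2 of 27 called lower were a smaller share than that of all genes, and the 17 called higher a larger one. TM7SF2 was the 1 gene past 1.5-fold: it measured 12.3, 12.2 and 12.0 CPM in wortmannin, against 4.77, 6.18 and 5.35 CPM in Vehicle, a log2 fold change of 1.16 ± 0.105 (adjusted p = 6.5e-14). Its partner LBR measured 95.7, 90.2 and 94.5 CPM in wortmannin, against 113, 114 and 115 CPM in Vehicle, and fell by 0.29 ± 0.0333 on the log2 scale (adjusted p = 2.4e-10). Neither gene's groups overlapped, and the 2 reductases moved in opposite directions. TM7SF2 ends in an overlap of 16 bases with VPS51 on the same strand.

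In wortmannin the feedback gene did not pass the test. INSIG1 measured 40.1, 42.4 and 39.8 CPM in wortmannin, against 39.3, 41.4 and 41.1 CPM in Vehicle, so the groups overlapped, and its log2 fold change was 0.0042 ± 0.0448 (adjusted p = 0.956). SREBF2 measured 138, 137 and 136 CPM in wortmannin, against 109, 115 and 111 CPM in Vehicle, without overlap, and rose by 0.30 ± 0.0392 (adjusted p = 8.0e-09). MBTPS2 measured 65.9, 67.0 and 68.8 CPM in wortmannin, against 75.6, 73.3 and 78.4 CPM in Vehicle, and fell by 0.17 ± 0.038 (adjusted p = 0.000216). SCAP measured 68.1, 66.8 and 64.4 CPM in wortmannin, against 66.1, 65.4 and 72.1 CPM in Vehicle, and the groups overlapped, with a log2 fold change of -0.03 ± 0.0387.

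Most enzymes rose modestly in wortmannin. HMGCS1 measured 199, 200 and 203 CPM in wortmannin, against 182, 182 and 182 CPM in Vehicle, and rose by 0.14 ± 0.0373. IDI1 measured 70.9, 69.9 and 70.1 CPM in wortmannin, against 62.1, 58.1 and 61.4 CPM in Vehicle, and rose by 0.22 ± 0.0467. FDPS measured 109, 108 and 110 CPM in wortmannin, against 86.3, 91.2 and 90.8 CPM in Vehicle, and rose by 0.28 ± 0.0421. These early enzymes were higher in every wortmannin library than in any Vehicle library. In the later steps, SQLE measured 150, 151 and 143 CPM in wortmannin, against 125, 120 and 124 CPM in Vehicle, and rose by 0.27 ± 0.0333. LSS measured 48.5, 47.5 and 47.5 CPM in wortmannin, against 36.3, 38.1 and 40.2 CPM in Vehicle, and rose by 0.32 ± 0.0446. CYP51A1 measured 122, 120 and 115 CPM in wortmannin, against 104, 104 and 103 CPM in Vehicle, and rose by 0.20 ± 0.0362. Again no libraries overlapped.

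MSMO1 was the enzyme with the next largest rise after TM7SF2: it measured 46.7, 50.2 and 48.0 CPM in wortmannin, against 32.7, 32.9 and 32.4 CPM in Vehicle, a log2 fold change of 0.56 ± 0.0521. DHCR7 measured 103, 105 and 106 CPM in wortmannin, against 90.5, 91.1 and 93.5 CPM in Vehicle, and rose by 0.19 ± 0.0355. STARD4 measured 27.1, 27.9 and 27.9 CPM in wortmannin, against 25.4, 23.7 and 23.5 CPM in Vehicle, and rose by 0.19 ± 0.049. In all 3 genes the groups were separate. GGPS1, on the branch to prenylation, also rose, by 0.25 ± 0.0512 on the log2 scale. The genes that were not called were MVK at -0.07 ± 0.0573, PMVK at -0.0048 ± 0.0878, EBP at -0.12 ± 0.0682, NSDHL at 0.04 ± 0.0408, INSIG2 at 0.13 ± 0.0823 and MBTPS1 at -0.02 ± 0.037, beside INSIG1 and SCAP.

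**Figure D4:**
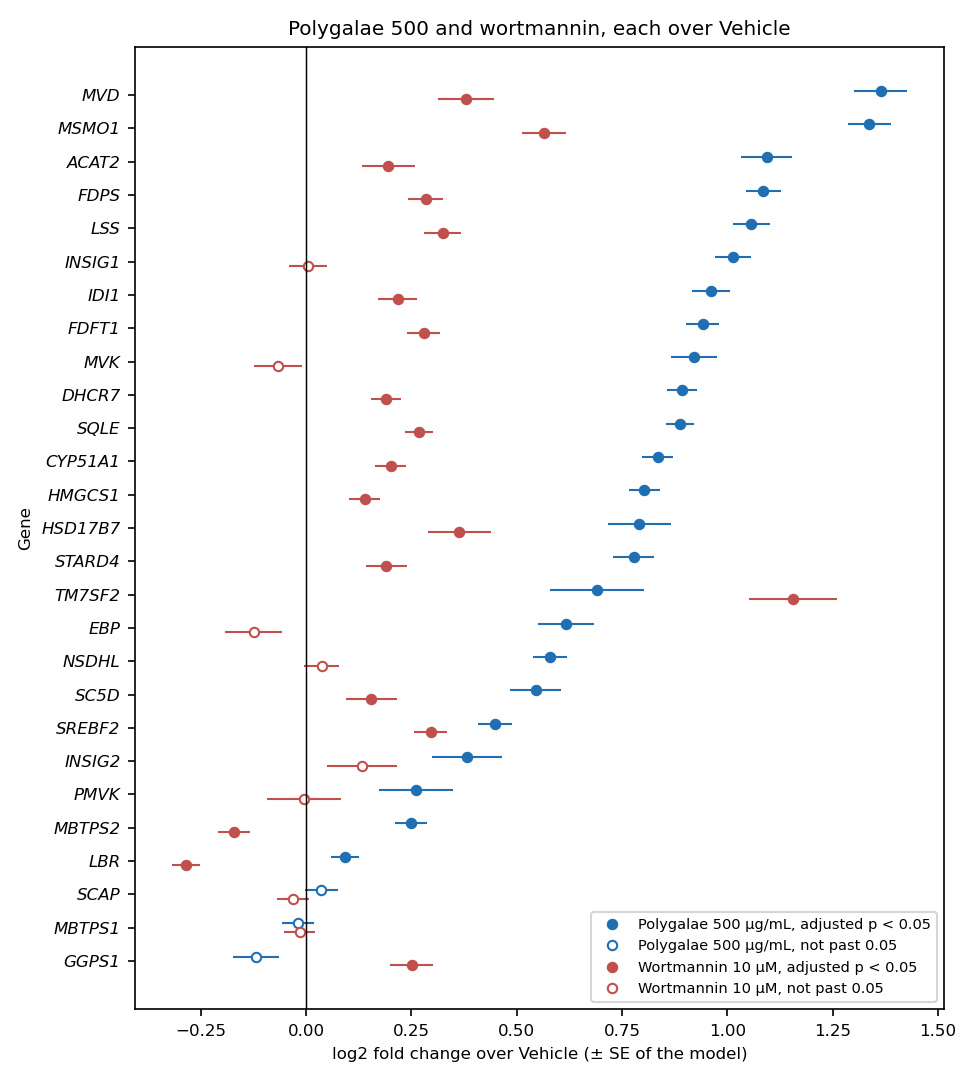
Log2 fold change over Vehicle of each of the 27 genes (rows, ordered by the Polygalae 500 value) in Polygalae 500 (blue) and wortmannin (red), with bars of ± 1 SE and filled points where the adjusted p was under 0.05. Both use the same 3 Vehicle libraries; TM7SF2 and GGPS1 are the genes with clearly larger values in wortmannin, and INSIG1 lies at 1.01 in Polygalae 500 and near 0 in wortmannin.

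The comparisons of Polygalae 500 and of wortmannin share the Vehicle libraries, so the treatments were also compared directly. Polygalae 500 exceeded wortmannin in 23 of the 27 genes and was lower in 2, with a median log2 difference of 0.62; 23.9% of all genes were called higher and 20.1% lower. The largest differences were in INSIG1 at 1.01 ± 0.0428, MVK at 0.99 ± 0.0544 and MVD at 0.98 ± 0.0606. MVK measured 43.4, 42.9 and 44.1 CPM in Polygalae 500, against 21.7, 21.9 and 22.0 CPM in wortmannin. The 2 genes that were lower in Polygalae 500 were GGPS1, by a log2 difference of -0.37 ± 0.0534 (adjusted p = 5.0e-08), and TM7SF2, by -0.47 ± 0.101 (adjusted p = 0.000116). GGPS1 measured 24.2, 25.7 and 25.6 CPM in Polygalae 500, against 32.3, 33.9 and 31.4 CPM in wortmannin, with no overlap. SREBF2 differed little, by 0.15 ± 0.039 (adjusted p = 0.000996). SCAP and MBTPS1 did not pass. The library sets of these groups differ, and set and treatment cannot be told apart here.

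The 4 remaining extracts gave 2 calls among 324 gene and group combinations, 12 groups of 27 genes each. Of these combinations, 58 had an unadjusted p under 0.05. Shares of all genes in this paragraph are calls at the adjusted threshold and are no measure for counts at an unadjusted p. The share of all genes at an unadjusted p was not computed, so these counts cannot be read as particular to the 27 genes. MSMO1 was higher in Zizyphi 500 than in Vehicle by 0.20 on the log2 scale (0.898% of all genes were called higher), and it measured 35.3 to 38.8 CPM there. The call was lost in 5 of the 6 fits that left out 1 library, all but the fit without Zizyphi 500 replicate 3, with an adjusted p for MSMO1 of up to 0.184. FDPS was higher in Schisandrae 100 by 0.18 (0.921%). That call was lost in 4 of the 6 such fits, those without Schisandrae 100 replicate 3 or any of the Vehicle replicates, with an adjusted p for FDPS of up to 0.316. Each call concerned a single dose. Of all genes, 0.363%, 0.599% and 1.81% were called in either direction in Zizyphi at 20, 100 and 500 µg/mL, and 0.0173%, 0.132% and 0.104% in Longan at the same doses. In Schisandrae these shares were 0.196%, 1.4% and 0.478%, and in Liriopis 0.0864%, 0.00576% and 0.00576%. No gene of the 27 was called by edgeR in Longan 500, Schisandrae 500 or Liriopis 500. The counts at an unadjusted p under 0.05 in these groups were 4, 3 and 0, and DESeq2 called none. Dose slopes of Zizyphi, Longan, Schisandrae and Liriopis gave 0 calls by edgeR among the 27, with 6, 0, 3 and 2 at an unadjusted p under 0.05, and DESeq2, run for Zizyphi, gave 0 as well. Of all genes, 0.359%, 0.0186%, 0.0553% and 0.0314% had a called slope in these extracts.

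Lists of neighbouring pathways are read beside the shares of all genes, 10.4% higher and 9.48% lower in Polygalae 500 and 18% higher and 19.4% lower in wortmannin. Of 13 genes of isoprenoid branches, which make ubiquinone, dolichol and prenylated proteins, 2 rose in Polygalae 500 over Vehicle: RABGGTB, a subunit of the enzyme that prenylates Rab proteins, by 0.19 ± 0.0496 and DHDDS, a subunit of the dolichol-making prenyltransferase, by 0.17 ± 0.0497. That count, 2 of 13, lies near the share over all genes, and the median of the 13 was 0.03. In wortmannin none of the 13 rose and 8 fell, with a median of -0.17, among them RABGGTB at -0.27 ± 0.0498 and DHDDS at -0.19 ± 0.0497. The largest fall was in COQ2, an enzyme of ubiquinone synthesis, at -0.51 ± 0.0616; COQ2 was named after its value was seen.

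Of 12 genes of sterol sensing and protein turnover, 6 rose and 1 fell in Polygalae 500 over Vehicle, with a median of 0.12. SPRING1, which aids the cutting of the SREBF2 product, rose by 0.39 ± 0.0376, TMEM97, a sterol-binding membrane protein, by 0.37 ± 0.0354, and POR, the electron donor of CYP51A1 and SQLE, by 0.27 ± 0.0392. CYB5R3, another reductase of the endoplasmic reticulum, fell by 0.25 ± 0.0584. In wortmannin 1 of the 12 rose and 3 fell, with POR at -0.19 ± 0.0393, counts near the shares over all genes. Of 12 genes of fatty acid synthesis, 9 rose and none fell in Polygalae 500, with a median of 0.34. The desaturases SCD, FADS1 and FADS2 rose by 0.77 ± 0.039, 0.65 ± 0.0304 and 0.57 ± 0.0392, and the acetate-activating enzyme ACSS2 by 0.75 ± 0.0544. In wortmannin 4 of the 12 rose and 4 fell; ACSS2 had a log2 fold change of 0.46 ± 0.0541 and SCD, at 0.08 ± 0.0388, did not pass. In the step of Polygalae 500 over Polygalae 100, 0 of 13, 1 of 12 and 6 of 12 genes of these 3 lists were called higher. The share over all genes in that step was 0.795%.

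Since these genes moved together in Polygalae 500, their promoters were searched, on both strands, for the core of the sterol regulatory element, the site bound by the SREBF2 product, and for the CCAAT box, the site of NF-Y. RefSeq windows of 250 bases before and 50 after the gene start (GRCh38.p14) were at hand for 24 of the 27 genes. The core TCACNCCAC was present in 1 of 24, in SREBF2, and in 1.39% of the windows of 27305 genes. With the last base free, as TCACNCCA, it was present in 3 of 24 (12.5%), against 4.81% of all genes; this shorter form contains no CCAAT and was added after the longer one had matched a single member. CCAAT was present in 17 of 24 (70.8%), against 39.7% of all genes. These matches describe letters, not bound sites. The 27305 genes were not limited to those expressed well enough to be tested, as all of the 24 were. A gene counted as matched if any of its windows held the letters, and 6 of the 24 had several windows. The part of these limits in the shares was not tested. The windows of the 3 genes with the shorter core are shown because they hold that match, which stands in capitals.
MSMO1, chr4:165327419-165327718, plus strand: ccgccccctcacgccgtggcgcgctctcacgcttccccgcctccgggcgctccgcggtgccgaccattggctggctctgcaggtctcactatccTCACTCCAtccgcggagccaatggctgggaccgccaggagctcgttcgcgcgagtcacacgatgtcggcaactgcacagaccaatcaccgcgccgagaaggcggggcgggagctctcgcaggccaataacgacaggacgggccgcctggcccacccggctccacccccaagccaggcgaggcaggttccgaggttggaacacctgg
MVK, chr12:109573544-109573843, plus strand: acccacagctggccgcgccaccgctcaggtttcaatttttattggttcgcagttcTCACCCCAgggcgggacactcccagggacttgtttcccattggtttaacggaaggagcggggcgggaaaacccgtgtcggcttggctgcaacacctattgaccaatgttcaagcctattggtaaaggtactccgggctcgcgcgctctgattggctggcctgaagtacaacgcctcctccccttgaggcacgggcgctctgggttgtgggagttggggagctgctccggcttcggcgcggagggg
SREBF2, chr22:41832855-41833154, plus strand: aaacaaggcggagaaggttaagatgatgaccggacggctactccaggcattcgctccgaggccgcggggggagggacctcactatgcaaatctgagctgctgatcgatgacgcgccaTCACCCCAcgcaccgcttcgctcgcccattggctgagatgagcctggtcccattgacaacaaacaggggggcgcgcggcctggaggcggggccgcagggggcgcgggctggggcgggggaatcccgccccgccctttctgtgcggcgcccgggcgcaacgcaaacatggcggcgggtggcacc
Distances are from the RefSeq start used for the window, which for MSMO1 is not the GENCODE start given above. The match in MSMO1 lay 156 to 149 bases upstream of it, that in MVK 195 to 188 and that in SREBF2 133 to 126. The 3 genes had log2 fold changes of 1.34, 0.92 and 0.45 in Polygalae 500 over Vehicle, so both the second largest rise among the 27 and a moderate one went with a match, while the window of MVD, with the largest, held CCAAT and neither form of the core.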

How the data were processed

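RNA from 60 libraries of A549 cells was prepared with a strand-specific kit and read as paired ends, per the labels' protocols. The authors deposited RSEM-type expected counts per Ensembl gene, and 10.7% of the values were not whole. RSEM 1.3.3, STAR 2.7.3a, Trim Galore 0.6.5, FastQC 0.11.9 and the build GRCh38 appear in the submitters' processing notes without roles; no source used here gives the annotation or the strand setting of the count. Ensembl IDs were given symbols from the reference table provided, which covered 56558 of 60675 genes, and gene positions come from GENCODE.

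Expected counts were rounded to whole numbers. Genes were kept by edgeR's filterByExpr over the 20 groups, which left 17368. Libraries were scaled by TMM (factors 0.965 to 1.05), and CPM values use the scaled totals. edgeR 4.0.16 in R 4.3.3 fitted 1 mean per group to all 60 libraries (robust quasi-likelihood, two-sided), and contrasts were called at a Benjamini-Hochberg adjusted p under 0.05 over all genes tested. Log2 fold changes are those of the fitted model. The log2 CPM values behind the per-library means and the correlations between libraries use a prior count of 2. Dose slopes were fitted within the 9 libraries of each extract. Replicate libraries differed by more than sampling noise (chi-square per degree of freedom 2.03 to 25.3), and each counted as a sample. This difference does not show that they stem from separate cultures. Same-numbered libraries of different groups did not deviate together (correlations -0.0474 to 0.0602), so replicate numbers were not used as pairs. Alternatives were DESeq2 1.42.0, its size factors within edgeR, no filter, fits of only the libraries compared, a replicate block and each library left out. The code was tested on simulated data.

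The members and lists were chosen with earlier results of these data known. All members are named; values by library are given for a fixed set by role and for members called against the main direction, with others where a comparison turned on them. Genes of other lists are the up to 4 with the largest absolute change in Polygalae 500 among those called. No molecular identifiers are named in the labels, so read counts need not be counts of molecules.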

Additional observations from a re-analysis of the deposited data

How the results depend on the processing

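For the main results the counts of changed genes among the 27 varied little when 1 library was left out: 22 to 24 in Polygalae 500 over Vehicle, 19 to 20 in Polygalae 100, 18 to 20 in wortmannin, 18 to 20 for the Polygalae slope, 21 to 21 in Polygalae 500 over Aucklandiae 500, 14 to 17 at 100 µg/mL, 19 to 20 in Polygalae 500 over Polygalae 100 and 24 to 25 in Polygalae 500 against wortmannin. Other counts moved, and the cause was not tested. With only the 6 libraries compared, Polygalae 100 against Polygalae 20 had 5 calls in place of 15, Polygalae 20 over Vehicle 0 in place of 5, Aucklandiae 500 4 (2 higher and 2 lower) in place of 2 (both lower), Zizyphi 500 3 in place of 1 and Schisandrae 500 1 in place of 0. DESeq2 gave 4 in place of 2 calls summed over the lower doses of the extracts other than Polygalae, and 1 in place of 0 in Polygalae 20 against Aucklandiae 20, as did the fit without the filter. The fit without the filter also gave 1 call for the Zizyphi slope in place of 0. Leaving out libraries gave 0 to 7 calls in Polygalae 20 over Vehicle, 0 to 4 in Polygalae 20 against Aucklandiae 20, 0 to 1 in Zizyphi 500, for the Zizyphi and Aucklandiae slopes and for the summed lower doses. Log2 fold changes near 0 changed sign without a call: INSIG1 in wortmannin was -0.00039 without the filter and ran between -0.025 and 0.021 when 1 library was left out, SCAP in Polygalae 500 between -0.00015 and 0.083, and SCAP in wortmannin between -0.056 and 0.017.

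With the replicate number as a block, although the numbers did not pair the samples, the count was 24 in Polygalae 500 over Vehicle, 20 in Polygalae 100, 19 in wortmannin and 18 for the Polygalae slope, and the Zizyphi slope had 1 call in place of 0. Without the libraries of Polygalae 20 and Liriopis 20, an alternative chosen after seeing the data, the counts were 24 in Polygalae 500 over Vehicle, 21 in Polygalae 100, 19 in wortmannin and 22 (21 higher and 1 lower) in Polygalae 500 against Aucklandiae 500.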
